A study of Homo sapiens with 12 samples.

Results

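The genes described here are 7 genes of DNA mismatch repair and direct alkylation repair: MSH3, MSH6, MLH3, PMS1, PMS2, EXO1 and MGMT. They were chosen by name from the 75253 entries of a table of RNA sequencing counts per gene. Each of the 7 was found once by its symbol, and all 7 passed the filter on low counts that left 29114 genes for testing. MGMT passed that filter through its counts in A375 alone, so a difference between the lines in that member was built into its presence. MLH3 had counts in both lines, with 14 and 35 in A375 with 6-thio-dG. The study used A375 and LOX-IMVI BR, 2 established lines of human metastatic melanoma grown in 6-well plates. Each received a control treatment, 5 µM 6-thio-dG or 25 µM BIBR1532, and each of the 6 groups held 2 biological replicates, so that there were 12 libraries. 6-thio-dG is a thioguanine nucleoside that telomerase can place in telomeres, and BIBR1532 is a small molecule that inhibits telomerase. The sources used here give neither the meaning of BR nor the vehicle of the control nor how long cells were exposed.

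Mismatch repair removes the base pairing errors and small loops that DNA polymerases leave behind in newly made strands. Proteins of the MutS family recognise the error, proteins of the MutL family are recruited and nick the new strand, and an exonuclease removes the stretch that holds the error before a polymerase fills the gap. MSH6 serves mainly single mispairs and MSH3 mainly larger loops. PMS2 is the MutL subunit with the main nicking activity in repair, MLH3 acts foremost in meiotic crossing over, and the role of PMS1 is less clear. EXO1 is the exonuclease. MGMT is a protein of another kind, which takes alkyl groups from guanine onto itself in a single use and protects cells from alkylating drugs. Mismatch repair is also known to respond to thioguanine that has entered DNA, where it can mispair.

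Total counts per library ran from 11813388 to 25822381. Levels are given as CPM, the usual depth-scaled count, after TMM scaling of the libraries, with mean ± SD of 2 libraries. Differences are log2 fold changes ± SE from edgeR's quasi-likelihood test, and called means a Benjamini-Hochberg adjusted p under 0.05 over all genes tested. A375 libraries of 1 group differed more than those of LOX-IMVI BR: replicates differed by a median of 0.63 log2 units, in absolute value, in the A375 control and by 0.69 in A375 with 6-thio-dG, against 0.13 in the LOX-IMVI BR control. In A375 with 6-thio-dG, and also with BIBR1532, 6 of the 7 members were lower in replicate 1 than in replicate 2. The summed level of 8 melanocyte markers was 571 to 643 CPM in the A375 control and 10.1 to 10.3 CPM in the LOX-IMVI BR control. SOX10, the lineage factor that made up most of the A375 sum, stood at 550 ± 55.2 and 0.592 ± 0.127 CPM, and MITF, the master factor of pigment genes, at 40.0 ± 7.82 and 7.52 ± 0.422 CPM. S100B in A375 and TYRP1 in LOX-IMVI BR were the only others of the 8 to reach a mean of 1 CPM in a control, and TYR had no count in either. A summed level of 8 leukocyte markers was 175 to 421 CPM in the A375 control and 738 to 989 CPM with 6-thio-dG. With 6-thio-dG 4 of 6 tested rose, 0 fell and 1 had no count. Only 1 of the 8 reached a mean of 1 CPM in the A375 control and 2 with 6-thio-dG, so few genes made up these sums. A sum of 8 keratinocyte markers was 193 to 324 CPM in the A375 control and 67.9 to 79.3 CPM in the LOX-IMVI BR control, where 2 of 5 tested were lower and 0 higher. The part of these markers in the members' values was not tested. In bulk RNA, fewer cells that use a gene and less RNA per cell cannot be told apart.

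Sequence before the transcription start is shown for the pair of members that differed most between the lines, MGMT and MLH3, and for MSH6, the member with the highest level. All 7 members matched the RefSeq promoter table of GRCh38.p14, which is a newer build than that of the counts. The 250 bases before the annotated start are written 5′ to 3′ on the strand of the gene, with each CG pair in capitals. CG pairs are the sites of DNA methylation, which was not measured in these libraries. The stretches are chr10:129466991-129467240 on the plus strand for MGMT, chr14:75051468-75051717 on the minus strand for MLH3 and chr2:47782895-47783144 on the plus strand for MSH6.
MGMT: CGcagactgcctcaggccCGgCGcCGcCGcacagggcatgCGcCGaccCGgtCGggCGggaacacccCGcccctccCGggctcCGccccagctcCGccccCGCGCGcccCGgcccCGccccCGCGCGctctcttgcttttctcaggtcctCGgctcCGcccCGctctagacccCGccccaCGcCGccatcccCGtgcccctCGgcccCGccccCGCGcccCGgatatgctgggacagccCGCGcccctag
MLH3: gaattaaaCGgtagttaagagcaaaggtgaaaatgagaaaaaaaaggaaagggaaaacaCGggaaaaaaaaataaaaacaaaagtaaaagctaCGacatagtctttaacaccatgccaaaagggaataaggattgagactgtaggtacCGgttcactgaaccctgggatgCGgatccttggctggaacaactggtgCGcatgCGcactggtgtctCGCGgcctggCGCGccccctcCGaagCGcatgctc
MSH6: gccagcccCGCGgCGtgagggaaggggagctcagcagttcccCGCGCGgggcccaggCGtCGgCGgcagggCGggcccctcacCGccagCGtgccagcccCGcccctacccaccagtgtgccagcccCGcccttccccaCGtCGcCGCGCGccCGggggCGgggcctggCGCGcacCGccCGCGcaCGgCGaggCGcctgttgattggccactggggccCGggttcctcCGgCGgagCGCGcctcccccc

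The MGMT stretch held 36 CG pairs and was 80.4% G and C. Of 27305 RefSeq promoter stretches of the same length, 4.73% held as many CG pairs, and the median stretch held 11. The MSH6 stretch was similar in composition, with 34 CG pairs and 81.2% G and C. The MLH3 stretch held 13 CG pairs and was 47.2% G and C, below the median of 58.0%, and 46.4% of stretches held as many pairs. The GC box, searched as GGGCGG on both strands, had 8 matches before MGMT, 5 before MSH6 and 0 before MLH3. At least 1 match was present in 42.3% of all stretches. These matches describe letters and not binding.

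MLH3 and MGMT separated the lines, in opposite directions. MLH3 had 20 and 3 counts in the 2 A375 control libraries, or 0.747 and 0.271 CPM. It had 771 and 809 counts in the LOX-IMVI BR control libraries, or 38.7 and 36.8 CPM. MLH3 was 65.5-fold higher in LOX-IMVI BR, a log2 difference of 6.03 ± 0.45 (edgeR adjusted p = 7.3e-08). The groups were far apart, and the difference lay between 5.65 and 7.09 when each control library was left out in turn.

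MGMT had 135 and 159 counts in the A375 controls, at 5.04 and 14.4 CPM, and 0 counts in both LOX-IMVI BR controls. The 47204271 counts of those LOX-IMVI BR libraries together would make 3 counts the upper limit for a gene with none seen. Against that floor of 3 counts over the group, the pooled MGMT level of the A375 control, 7.77 CPM, was 109-fold higher. The value was 70.5-fold from A375 control replicate 1 alone and 201-fold from replicate 2 alone. MGMT passed the filter through A375 alone, so its edgeR call (adjusted p = 1.5e-06) adds no support to these counts. The gap between the lines was present under both compounds as well. With 6-thio-dG, A375 had 96 MGMT counts and LOX-IMVI BR 1, a ratio of 193 with a 95% counting interval from 33.8 to 7690. With BIBR1532 the counts were 291 and 1, a ratio of 244 with an interval from 43.4 to 9660. No library of LOX-IMVI BR held more than 1 MGMT count, so no compound effect on MGMT could be measured in that line.

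Of the 7 members, MLH3 was called higher and MGMT lower in the LOX-IMVI BR control than in the A375 control, where 21.1% of all genes tested were called higher and 28.8% lower, or 49.8% in either direction. The share of members called was below that background. The groups were apart for 5 of the 7 members and for 75.5% of all genes. The summed level of 8 fibroblast markers was 14.2 to 16.7 CPM in the A375 control and 1861 to 1895 CPM in the LOX-IMVI BR control, where 4 of the 8 were called higher and 1 lower, and its part in the members' values was not tested. The other 5 members did not pass the test: MSH6 stood at 158 ± 5.72 against 88.2 ± 32.4 CPM, PMS1 at 15.3 ± 1.27 against 9.22 ± 0.259, and EXO1 at 25.2 ± 1.45 against 21.9 ± 1.91. MSH3 stood at 14.3 ± 0.387 against 12.2 ± 2.86 CPM and PMS2 at 12.7 ± 1.66 against 14.7 ± 1.93 CPM, with overlapping libraries in both cases. Their log2 differences ran from -0.21 for PMS2 to 0.84 for MSH6, with adjusted p values of 0.12 or higher in edgeR's test. That of PMS2 changed sign to 0.14 when a trend with transcript GC content was taken out. Tested genes with transcripts below 43% GC, with MSH6, PMS1, EXO1 and MSH3 among them, had a median difference of 0.70 between the controls. Of these genes 35.5% were called higher and 15.6% lower. Over all genes with symbols the median was -0.17.

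**Figure D1:**
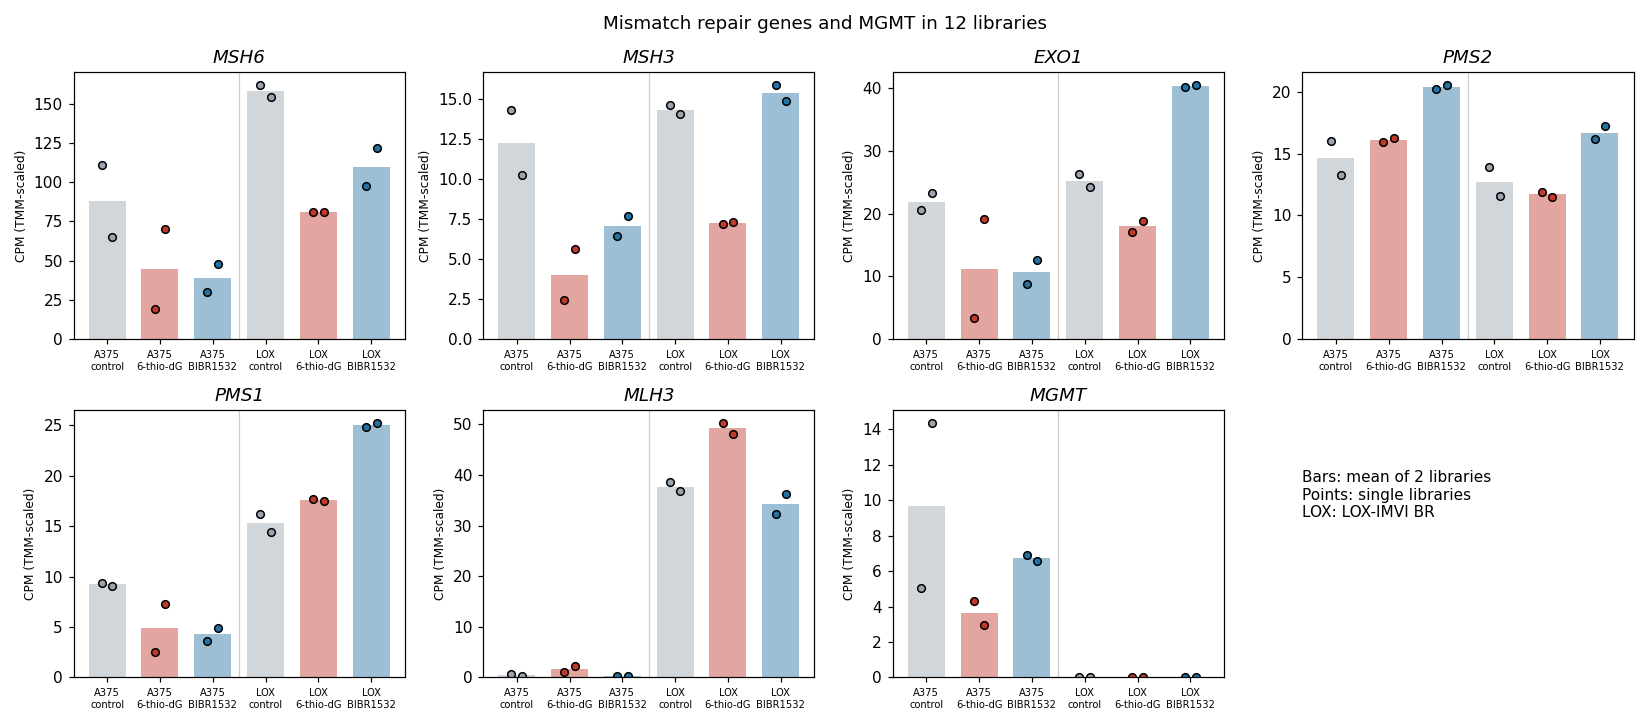
TMM-scaled CPM of the 7 members on linear axes that start at 0, with the mean of 2 libraries as bars and single libraries as points; LOX stands for LOX-IMVI BR. MLH3 stood above 30 CPM in every LOX-IMVI BR library and below 3 CPM in every A375 library, and MGMT was at or near 0 in LOX-IMVI BR.

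The order of the members was read per length, as CPM per kilobase of the longest coding transcript. That transcript had 7476 bases for MSH6 and 2855 for PMS2. Other transcripts of a gene were not tried, so the order holds for these lengths alone. By mean, MSH6 led in every group but A375 with BIBR1532, at 11.8 CPM per kilobase in the A375 control and 21.1 in the LOX-IMVI BR control. In the A375 control EXO1 followed at 6.30, then MGMT at 5.52, PMS2 at 5.13, MSH3 at 2.99, PMS1 at 2.70 and MLH3 at 0.0644. The libraries of EXO1 and PMS2 each lay within the wide MGMT range of 2.86 to 8.17, and the range of PMS1, 2.65 to 2.75, lay within that of MSH3, 2.50 to 3.48. In the LOX-IMVI BR control the order was MSH6, EXO1 at 7.27, MLH3 at 4.78, PMS1 at 4.48, PMS2 at 4.45, MSH3 at 3.50 and MGMT at 0. There, MLH3, PMS1 and PMS2 overlapped and cannot be ordered. PMS2 stood first in A375 with BIBR1532, at 7.15 against 5.20 for MSH6, and its 2 libraries were above both of MSH6. Before the division by length MSH6 was the higher there, at 38.9 against 20.4 CPM, so that lead of PMS2 depends on the lengths used. In A375 with 6-thio-dG, MSH6 at 6.01 and PMS2 at 5.64 cannot be ordered. There, the range of PMS2, 5.58 to 5.71, lay within that of MSH6, 2.61 to 9.42.

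The neighbours of MLH3 and MGMT were read for the same difference between the lines. EIF2B2, which codes for a subunit of a translation initiation factor, ends 1408 bases from MLH3 in RefSeq on GRCh38.p14. It differed in the direction opposite to MLH3, at 303 ± 172 CPM in the A375 control and 53.0 ± 0.307 CPM in the LOX-IMVI BR control (log2 difference -2.52 ± 0.37, edgeR adjusted p = 5.2e-05). ACYP1, 1775 bases to the other side of MLH3, was not called (12.4 ± 5.14 against 9.07 ± 0.988 CPM, adjusted p = 0.28). EBF3, a transcription factor gene 64249 bases beyond MGMT, differed in the same direction as MGMT. It stood at 37.7 ± 16.5 CPM in the A375 control and 0.121 ± 0.0421 CPM in the LOX-IMVI BR control (log2 difference -8.23 ± 0.61, adjusted p = 6.7e-08). The large difference of MLH3 was therefore not shared by the genes beside it, while the neighbour to one side of MGMT went the same way as MGMT. Between the controls 28.8% of all genes and 32.3% of genes with symbols were called lower in LOX-IMVI BR. Whether EBF3 and MGMT are linked was not tested. MKI67, the proliferation marker 1340817 bases to the other side of MGMT, was higher in the LOX-IMVI BR control, at 722 ± 12.1 against 103 ± 50.2 CPM (adjusted p = 0.0017).

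**Figure D2:**
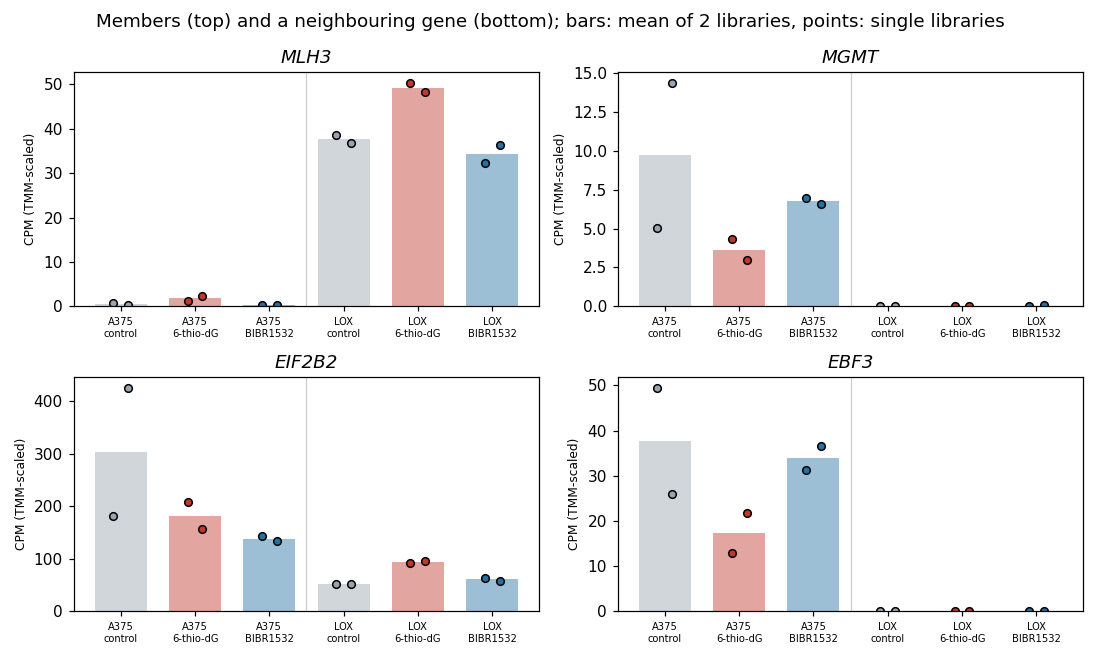
TMM-scaled CPM by group for MLH3 and MGMT (top) and for EIF2B2 and EBF3, which lie beside them (bottom), on linear axes from 0, with bars for the mean of 2 libraries and points for single libraries. EBF3 was near 0 in LOX-IMVI BR, as MGMT was, while EIF2B2 was higher in A375, where MLH3 was low.

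In A375 cells exposed to 6-thio-dG, 2 of the 7 members were called, 1 in each direction: MSH3 fell and MLH3 rose. Over all genes tested 18.1% were called in this comparison, 9.86% higher and 8.21% lower. The libraries of the groups did not overlap for 5 of the 7 members and for 46.3% of all genes. The median log2 difference of the members was -0.95, against 0.03 over all genes tested and -0.25 over the 14439 of them with symbols, of which 12.9% were called lower.

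Among the MutS genes, MSH3 had 14.3 and 10.2 CPM in the A375 controls against 2.42 and 5.63 CPM with 6-thio-dG. Both exposed libraries lay below both controls. MSH3 fell 3.02-fold, a log2 difference of -1.60 ± 0.37 (edgeR adjusted p = 0.0094). The call held when each library was left out in turn, with log2 differences of -1.14 without 6-thio-dG replicate 1 and -2.36 without 6-thio-dG replicate 2. It was lost when A375 was fitted without the other line (adjusted p = 0.11). MSH6, the most abundant member, had 111 and 65.3 CPM in the controls against 19.5 and 70.4 CPM with 6-thio-dG. The exposed libraries differed by more than the controls did and overlapped them, and MSH6 was not called (-0.97 ± 0.46, adjusted p = 0.16). The difference of MSH6 was -0.33 without 6-thio-dG replicate 1 (adjusted p = 0.54) and -2.19 without 6-thio-dG replicate 2 (adjusted p = 8.0e-04).

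Among the MutL genes, MLH3 had 20 and 3 counts in the A375 controls and 14 and 35 counts with 6-thio-dG. Scaled to depth these were 0.747 and 0.271 CPM against 1.17 and 2.35 CPM, with both exposed libraries above both controls. MLH3 rose 3.10-fold from this low level (1.63 ± 0.46, edgeR adjusted p = 0.025). Its call rested on few counts: it was lost without control replicate 2 (1.23, adjusted p = 0.069), without 6-thio-dG replicate 2 (0.97, adjusted p = 0.14) and with A375 fitted alone (adjusted p = 0.13), and the difference was 2.67 without control replicate 1. Even the higher exposed library stayed far below the 36.8 CPM of the lower LOX-IMVI BR control. PMS1 had 9.41 and 9.04 CPM in the controls against 2.50 and 7.24 CPM with 6-thio-dG, which did not overlap but was not called (-0.91 ± 0.39, adjusted p = 0.12). Its difference was -0.36 without 6-thio-dG replicate 1 (adjusted p = 0.38) and -1.89 without 6-thio-dG replicate 2 (adjusted p = 5.0e-04). PMS2 had 16.0 and 13.3 CPM against 15.9 and 16.3 CPM, and its difference of 0.13 ± 0.28 was not called (adjusted p = 0.77) and changed sign, to -0.091, with no filter on low counts. PMS2 has near-identical pseudogene copies in the genome, and the sources used here do not say how reads shared with them were counted.

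EXO1 had 20.5 and 23.2 CPM in the A375 controls against 3.42 and 19.1 CPM with 6-thio-dG, a wide spread between exposed libraries. It was not called (-0.95 ± 0.51, edgeR adjusted p = 0.21), and its difference was -0.20 without 6-thio-dG replicate 1 (adjusted p = 0.64) and -2.68 without 6-thio-dG replicate 2 (adjusted p = 5.6e-05). MGMT had 5.04 and 14.4 CPM in the controls against 4.34 and 2.95 CPM with 6-thio-dG. The exposed libraries lay below the controls, but the lower control was close to them. The MGMT difference of -1.39 ± 0.46 missed the threshold (adjusted p = 0.051). It ran from -0.50 without control replicate 2 to -2.01 without control replicate 1, where it passed (adjusted p = 0.0045), and it also passed in DESeq2's test (-1.55, adjusted p = 0.039).

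In A375 cells exposed to BIBR1532, 0 of the 7 members were called, while 15.8% of all genes tested were called, 8.49% higher and 7.29% lower. The higher genes were 53.8% of those called, but 85.5% with A375 fitted alone and 90.3% and 88.9% without BIBR1532 replicates 1 and 2. At an unadjusted p under 0.05, 3 members passed in edgeR's test, MSH3, MSH6 and PMS1, and DESeq2's test called 0. Here and below, counts at that unadjusted threshold have no share over all genes beside them. They are therefore no result about the members as a set. This comparison and that of 6-thio-dG share the 2 A375 control libraries. MSH6 had 30.2 and 47.6 CPM with BIBR1532 against 111 and 65.3 CPM in the controls (-1.18 ± 0.46, adjusted p = 0.095). PMS1 had 3.63 and 4.94 CPM against 9.41 and 9.04 CPM (-1.11 ± 0.39, adjusted p = 0.064), and MSH3 had 6.40 and 7.70 CPM against 14.3 and 10.2 CPM (-0.80 ± 0.35, adjusted p = 0.13). EXO1 had 8.78 and 12.6 CPM against 20.5 and 23.2 CPM (-1.03 ± 0.51, adjusted p = 0.18). In each of these 4 genes both exposed libraries lay below both controls. The groups were apart for 5 of the 7 members and for 57% of all genes. With BIBR1532 the summed level of the melanocyte markers was 1299 to 1461 CPM, and 3 of 6 tested rose and 1 fell. That of the leukocyte markers was 583 to 638 CPM, and 2 of 6 tested rose and 0 fell, with 3 of the 8 at a mean of 1 CPM or more. The part of both in the members' values was not tested.

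PMS2 had 20.2 and 20.6 CPM with BIBR1532 and 16.0 and 13.3 CPM in the controls, also apart but not called (0.47 ± 0.27, edgeR adjusted p = 0.25). MLH3 had 6 counts in each BIBR1532 library, at 0.269 and 0.290 CPM, near the lower control. MGMT had 6.94 and 6.58 CPM, between the 2 control libraries, so that its difference of -0.49 ± 0.44 (adjusted p = 0.47) lay within the spread of the controls.

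**Figure D3:**
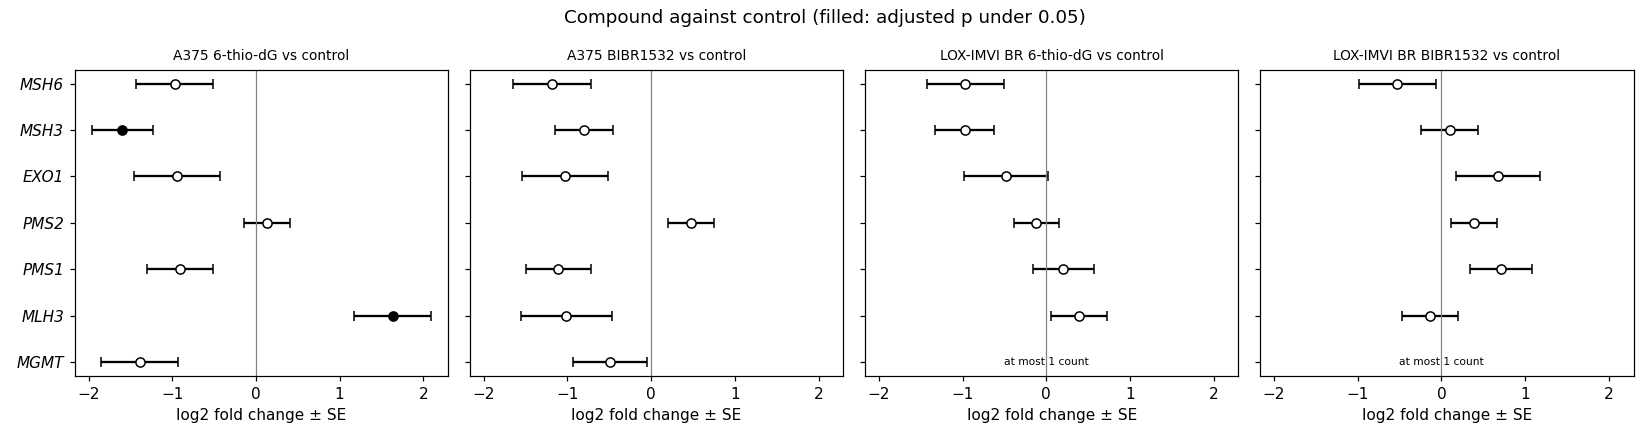
Log2 fold change ± SE of each member for each compound against its control, 4 comparisons side by side on the same linear axis; filled points have an edgeR adjusted p under 0.05 over all genes tested. The 2 filled points are MSH3 at -1.60 and MLH3 at 1.63 in A375 with 6-thio-dG, and MGMT is not drawn for LOX-IMVI BR, where it had at most 1 count in a library.

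The base composition of transcripts moved with the libraries of A375. The longest coding transcripts of 5 members, MSH3, MSH6, MLH3, PMS1 and EXO1, were 39.9% to 42.4% G and C, below the median of 49.1% over the tested genes with symbols, while PMS2 was at 46.2% and MGMT at 57.5%. The 3882 tested genes below 43%, a limit set with the members in view, had a median log2 difference of -0.68 in A375 with 6-thio-dG against control and -0.93 with BIBR1532 against control. Of these genes, 17% were called lower with 6-thio-dG and 24.8% with BIBR1532. In LOX-IMVI BR against its control their medians were -0.17 with 6-thio-dG and 0.21 with BIBR1532. The library that stood lowest was A375 6-thio-dG replicate 1, where such genes had a median log2 deviation of -1.10 from their A375 mean and MSH3, MSH6, PMS1 and EXO1 had a mean deviation of -1.43 from theirs. In 6-thio-dG replicate 2 the same values were 0.47 and 0.32. MLH3, which had few counts in A375, was left out of that mean and deviated the other way in replicate 1, at 0.81, and by 1.76 in replicate 2. With MLH3 included the means were -0.98 and 0.60. A fit that took a trend with GC content out of each library gave MSH3 a difference of -0.99 in A375 with 6-thio-dG (edgeR adjusted p = 0.0020) and MLH3 one of 2.26 (adjusted p = 5.8e-04). In that fit MGMT passed at -1.46 (adjusted p = 0.016), while MSH6 was -0.37, PMS1 -0.22 and EXO1 -0.52, all uncalled. With BIBR1532 in A375 that fit gave MSH6 -0.51, PMS1 -0.32 and EXO1 -0.60.

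**Figure D4:**
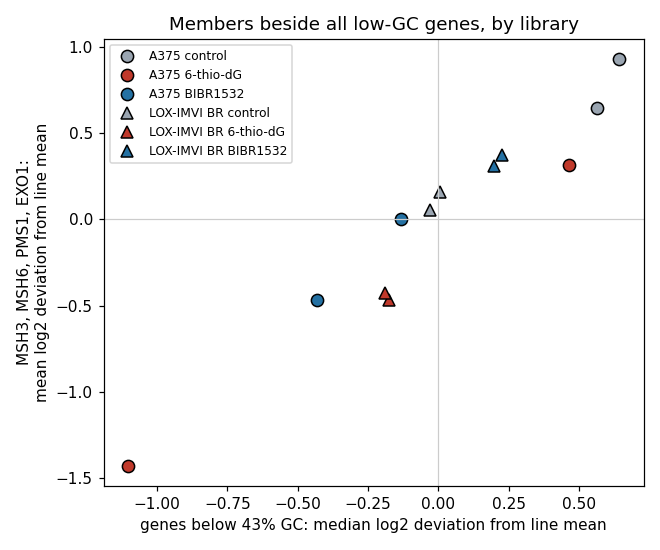
Mean log2 deviation of MSH3, MSH6, PMS1 and EXO1 (vertical axis) and median log2 deviation of 3882 genes below 43% GC (horizontal axis), each from the mean of its cell line, for 12 libraries; circles are A375 and triangles LOX-IMVI BR. A375 6-thio-dG replicate 1 lies lowest on both axes, at -1.43 and -1.10, while the LOX-IMVI BR libraries span a smaller range.

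In LOX-IMVI BR cells exposed to 6-thio-dG, 0 of the 6 members with counts were called, while 17% of all genes tested were called, 9.81% higher and 7.16% lower. At an unadjusted p under 0.05, 1 member passed in edgeR's test, MSH3, and DESeq2's test called 0. Replicates in this line lay close together, and the groups did not overlap for 5 of the 6 members and for 74.4% of all genes. MSH3 had 7.21 and 7.33 CPM with 6-thio-dG against 14.6 and 14.0 CPM in the controls. Its log2 difference was -0.98 ± 0.35 (adjusted p = 0.067). MSH6 had 80.7 and 80.8 CPM against 162 and 154 CPM with a difference of -0.97 ± 0.46 (adjusted p = 0.18).

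MLH3 had 50.3 and 48.2 CPM against 38.7 and 36.8 CPM in these controls (0.39 ± 0.33, edgeR adjusted p = 0.49), and both exposed libraries were the higher ones. PMS1 had 17.7 and 17.5 CPM against 16.2 and 14.4 CPM (0.20 ± 0.37, adjusted p = 0.78), and EXO1 had 17.1 and 18.9 CPM against 26.3 and 24.2 CPM (-0.49 ± 0.50, adjusted p = 0.57). PMS2 overlapped between the groups, with 11.9 and 11.5 CPM against 13.9 and 11.5 CPM, and its difference of -0.12 changed sign with upper-quartile scaling, to 0.11. The spread used in these tests was estimated over both lines. With LOX-IMVI BR fitted alone, 5 of the 6 members passed: MSH3, MSH6, MLH3, PMS1 and EXO1. That fit also called far more genes over the whole table, 15128 against 4939 in the fit reported. The fit with a GC trend called 4, MSH3 at -0.75 (adjusted p = 0.0046), MSH6 at -0.73 (0.038), MLH3 at 0.62 (0.023) and PMS1 at 0.44 (0.035). It called 4145 genes in all. In the same LOX-IMVI BR libraries the summed level of 8 fibroblast markers was 1861 to 1895 CPM in the controls and 35.8 to 38.0 CPM with 6-thio-dG. Of the 8, 5 fell, 0 rose and 0 were at no count in both libraries of a group, and the part of this in the members' values was not tested.

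In LOX-IMVI BR cells exposed to BIBR1532, 0 of the 6 members with counts were called, and 3.59% of all genes tested were called, 2.9% higher and 0.69% lower. At an unadjusted p under 0.05, 0 members passed in edgeR's test, and DESeq2's test called 0. This comparison shares the 2 LOX-IMVI BR controls with that of 6-thio-dG. EXO1 had 40.2 and 40.6 CPM against 26.3 and 24.2 CPM in the controls (0.68 ± 0.50, adjusted p = 0.60). PMS1 had 24.8 and 25.2 CPM against 16.2 and 14.4 CPM (0.71 ± 0.37, adjusted p = 0.40), and PMS2 had 16.1 and 17.2 CPM against 13.9 and 11.5 CPM (0.39 ± 0.27, adjusted p = 0.56). All of these libraries lay above the controls. MSH6 lay below them, at 97.8 and 122 CPM against 162 and 154 CPM (-0.53 ± 0.46, adjusted p = 0.67). MSH3, at 15.9 and 14.8 CPM, had a difference of 0.10, which changed sign to -0.021 with upper-quartile scaling, and MLH3, at 32.2 and 36.3 CPM, had one of -0.14. The groups were apart for all 6 members and for 62.9% of all genes. With LOX-IMVI BR fitted alone, 5 of the 6 members passed, all but MSH3. That fit called 10820 genes in all, against 1046 in the fit reported.

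The compounds were also set against each other within each line, at the 5 µM and 25 µM that the study used. In A375, MLH3 was 6.26-fold higher with 6-thio-dG, at 1.17 and 2.35 CPM, than with BIBR1532, at 0.269 and 0.290 CPM (2.65 ± 0.49, edgeR adjusted p = 0.0024). It was the only member of 7 called there, against 16% of all genes, 7.26% higher and 8.76% lower, and the groups were apart for 4 of the 7 and for 52.2% of all genes. Without BIBR1532 replicate 2 its adjusted p was 0.051. In LOX-IMVI BR, MSH3 was 2.11-fold lower with 6-thio-dG, at 7.21 and 7.33 CPM, than with BIBR1532, at 15.9 and 14.8 CPM (-1.08 ± 0.35, adjusted p = 0.040). It was the only member of 6 called there, against 20.6% of all genes, 9.89% higher and 10.7% lower, and the groups were apart for all 6 and for 74.5% of all genes. The call was lost when any of the 4 libraries was left out (adjusted p from 0.15 to 0.21), with upper-quartile scaling (0.15), with a filter of 1 CPM in 2 libraries (0.084) and among genes with symbols alone (0.15). EXO1, at 17.1 and 18.9 against 40.2 and 40.6 CPM, had the larger difference there but was not called (-1.16 ± 0.51, adjusted p = 0.12). Genes below 43% GC had a median of -0.41 between the compounds in LOX-IMVI BR, and 15.7% of them were called lower and 2.6% higher. Over all genes with symbols that median was -0.22. The fit with a GC trend called 2 members there, MSH3 and MLH3.

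The effects of each compound were compared between the lines by an interaction term. For 6-thio-dG, 0 of 6 members were called, against 5.54% of all genes tested (2.48% higher and 3.06% lower in LOX-IMVI BR), with 1 member at an unadjusted p under 0.05 in edgeR's test and 0 called by DESeq2's. That member was MLH3, whose effect was 1.25 ± 0.57 log2 units smaller in LOX-IMVI BR than in A375 (log2 difference of effects -1.25, adjusted p = 0.23). The MSH3 effects of -1.60 in A375 and -0.98 in LOX-IMVI BR did not differ beyond their error (0.62 ± 0.50, adjusted p = 0.54), although only the first passed its own test. This difference was 0.15 without A375 6-thio-dG replicate 1 and 1.37 without A375 6-thio-dG replicate 2, so it depended on which of these libraries was kept. For BIBR1532, 0 of 6 members were called by edgeR's test, against 3.63% of all genes (2.09% higher and 1.54% lower in LOX-IMVI BR), with 2 at an unadjusted p under 0.05 and 1 called by DESeq2's test. These were PMS1, with a difference of effects of 1.82 ± 0.54 (adjusted p = 0.072, and 0.034 in DESeq2's test), and EXO1, with 1.71 ± 0.72 (adjusted p = 0.18). Both stood lower with BIBR1532 than in the control in A375 and higher in LOX-IMVI BR. The 3882 tested genes below 43% GC, with PMS1 and EXO1 among them, had a median difference of effects of 1.20 for BIBR1532. Over all genes with symbols that median was 0.26. The fit with a GC trend called 1 member here, PMS1, and with a replicate block as well it called 0.

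The genes that finish mismatch repair after excision were read as a list of 16: the sliding clamp PCNA, its loader RFC, the single-strand binding proteins, DNA polymerase delta, the ligase LIG1 and HMGB1. Of the 15 tested, 3 fell and 0 rose in A375 with 6-thio-dG, with a median of -0.67, against 8.21% of all genes called lower and 12.9% of genes with symbols: HMGB1 (-1.87 ± 0.45), the clamp loader subunit RFC3 (-1.81 ± 0.42) and the polymerase subunit POLD2 (-1.60 ± 0.34), with edgeR adjusted p values of 0.012, 0.0099 and 0.0068. Replicates of these 3 were far apart: with 6-thio-dG, RFC3 had 6.42 and 21.7 CPM and HMGB1 33.0 and 119 CPM, and POLD2 had 193 and 418 CPM in the controls. With BIBR1532 in A375, 4 fell and 0 rose, with a median of -0.44, against 7.29% of all genes called lower and 10.3% of genes with symbols. They were the same 3 and SSBP1, a mitochondrial single-strand binding protein, which had about 1 CPM in the control. In LOX-IMVI BR with 6-thio-dG, RPA2, a subunit of the nuclear single-strand binding complex, rose from 37.2 to 77.1 CPM (1.05 ± 0.32, adjusted p = 0.036) and HMGB1 fell from 603 to 219 CPM (-1.46 ± 0.44, adjusted p = 0.034). With BIBR1532 in that line 0 of 15 were called and the median was 0.22. Between the controls 6 were higher and 3 lower in LOX-IMVI BR, against 21.1% and 28.8% of all genes. Among the higher ones were LIG1 at 18.9 against 7.65 CPM and PCNA at 221 against 111 CPM.

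Of 6 relatives, among them the meiotic MutS genes MSH4 and MSH5, MSH5 fell in A375 with 6-thio-dG, from 53.2 to 24.4 CPM (-1.13 ± 0.30, edgeR adjusted p = 0.019). MSH4 rose in LOX-IMVI BR with 6-thio-dG, from 0.903 to 3.62 CPM (2.00 ± 0.46, adjusted p = 0.0082). Each was the only relative called in its comparison. Of all genes, 8.21% were called lower in the first and 9.81% higher in the second. With BIBR1532 0 of the 6 were called in either line. Of 5 other genes of alkylation repair, 3 were lower in the LOX-IMVI BR control than in the A375 control, as MGMT was, against 28.8% of all genes and 32.3% of genes with symbols. These were the dealkylating enzymes ALKBH2 (16.1 against 47.8 CPM, adjusted p = 0.0015) and ALKBH3 (1.78 against 5.23 CPM, adjusted p = 0.0069) and the glycosylase MPG (40.0 against 102 CPM, adjusted p = 0.011). With the compounds, 1 of these 5 was called: ASCC3, a helicase subunit that works with ALKBH3, fell in A375 with BIBR1532 from 36.7 to 8.30 CPM (-2.14 ± 0.61, adjusted p = 0.030). In that comparison 7.29% of all genes and 10.3% of genes with symbols were called lower.

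Cell cycle genes were read in the same libraries. Of 19 genes of S phase and proliferation, 13 fell and 0 rose in LOX-IMVI BR with 6-thio-dG, with a median of -1.29, where 7.16% of all genes were called lower and 0 of the 6 members. In A375 with 6-thio-dG 6 fell and 0 rose, with a median of -0.55, where 8.21% of all genes were called lower. With BIBR1532, 1 rose and 1 fell in A375 and 0 were called in LOX-IMVI BR, with medians of -0.07 and 0.07. MKI67 stood at 181 ± 31.3 CPM in LOX-IMVI BR with 6-thio-dG against 722 ± 12.1 CPM in the control. The part of proliferation in the values of MSH6, MSH3 and EXO1 was not tested.

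Genes with the most similar pattern to each member were found over the 12 libraries, among genes whose mean reached 5 CPM, by the root mean square difference of log2 CPM after centring each gene. For MLH3 the nearest of 10195 genes was TMEM204 at 0.45, followed by TTN at 0.50, and for MGMT the nearest was GSTM1 at 0.43, followed by P2RX5 at 0.44. These distances are small beside the SD of the members over the libraries, 3.13 for MLH3 and 3.05 for MGMT, both set by the gap between the lines. For MSH6 the nearest was DNAJC3 at 0.15, for MSH3 MYO5A at 0.17, for EXO1 ELOVL6 at 0.18, for PMS1 OSGIN2 at 0.15 and for PMS2 CLEC16A at 0.15. PMS2 varied least of the 7, with an SD of 0.29, while those of MSH3, MSH6, EXO1 and PMS1 ran from 0.79 to 1.07. All of these genes share the 12 libraries and their depths, so these values describe likeness alone.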

How the data were processed

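Total RNA went into unstranded TruSeq libraries, per the labels' protocols. The authors deposited raw counts, as 1 table with a whole number for each gene and library. STAR, featureCounts 1.5.1, Picard and GATK and the builds hg19 and GRCh37 are named, per the submitters' processing notes; their roles and the counting settings are not given in the sources used here. That table held 75253 rows, 21177 of them with gene symbols and 54072 with NONCODE identifiers. Some symbols had become dates, and 4 such rows that could not be told apart by name, at most 0.000913% of a library's counts, were left out.

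The test was edgeR 4.0.16 under R 4.3.3: filterByExpr, TMM scaling and a robust quasi-likelihood fit of 6 group means to the 12 libraries, with 6 residual degrees of freedom and 9 comparisons, each adjusted by Benjamini-Hochberg over 29114 genes. It was checked on simulated data. Alternatives were DESeq2 1.42.0, other scaling and filters, each line alone, a replicate block, a GC trend from GENCODE transcripts and leaving out each library. GC content was found for 20567 of 21177 symbol rows. Whether replicates came from separate cultures beyond the label of biological replicate is not stated, so p-values measure the spread between these samples. Intervals and floors cover counting error only. The members, the gene lists and the rule for named genes (all members, list genes that were called, the nearest neighbours of MLH3 and MGMT on the genome and the nearest genes by pattern) were chosen with earlier results of these data known.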

Additional observations from a re-analysis of the deposited data

How the results depend on the processing

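With 2 libraries per group and wide spread in A375, the test could miss differences of the size seen in most members, and called values of MLH3 in A375 and MGMT in LOX-IMVI BR rest on few or no counts on one side. Of 58 member differences 6 were called; none of these 6 changed sign under the alternatives run, and 16 uncalled ones did. Replicate numbers were not taken as pairs, since correlations of replicate differences between groups of a line ran from -0.14 to 0.35, the highest between A375 with 6-thio-dG and with BIBR1532, and most were near or below 0. The cause of the shifts given here was not tested beyond the fewer genes or samples that an alternative holds.

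Upper-quartile scaling moved the median of all genes in A375 by 0.39 with 6-thio-dG and 0.23 with BIBR1532, and in LOX-IMVI BR by 0.23 and -0.12. It moved the share of higher calls in the first 3 of these from 54.6% to 80.0%, from 53.8% to 66.4% and from 57.8% to 73.5%. Between compounds the median moved by 0.16 in A375 and 0.35 in LOX-IMVI BR and the share from 45.3% to 60.1% and from 48.0% to 69.5%, and for the BIBR1532 effect between lines by -0.35, with the share from 57.6% to 38.1%. DESeq2's test gave shares of higher calls of 39.4% in A375 and 47.7% in LOX-IMVI BR with 6-thio-dG and 32.5% between compounds in A375. The GC trend, over fewer genes, gave 43.9% and 39.3% in A375 with 6-thio-dG and BIBR1532, 44.6% and 52.3% in LOX-IMVI BR, where the share with BIBR1532 was 80.8% in the fit reported, 50.8% with the line alone and 93.7% and 93.5% without BIBR1532 replicates 1 and 2, and 57.8% between the controls against 42.3%, with the median moved by 0.55.

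Members called in A375 with 6-thio-dG, 2 in the fit reported, were 6 with no filter on low counts, 0 with the line alone, and 1 to 4 with a library left out. With BIBR1532 in A375, 1 was called with no filter. In LOX-IMVI BR with 6-thio-dG, 1 was called with no filter, 5 with the line alone and 4 with the GC trend, and with BIBR1532, 5 with the line alone. Between compounds in A375, 2 were called with no filter and 2 with the GC trend, and 0 to 3 with a library left out. Between compounds in LOX-IMVI BR, 0 were called with upper-quartile scaling, with a filter of 1 CPM in 2 libraries, with symbol genes alone and with any library left out, 2 with no filter or the GC trend and 6 with the line alone. For the difference between lines, the GC trend called 1 for 6-thio-dG, where leaving out a library gave 0 to 3, and 1 for BIBR1532, where DESeq2's test called 1 and the fit with no filter 2.

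With the replicate block, 1 member was called in A375 with 6-thio-dG, since MLH3 was lost (adjusted p = 0.054), and 0 between compounds in LOX-IMVI BR, where MSH3 was lost (0.061); it changed no other call of a member. The block with the GC trend called 2 in LOX-IMVI BR with 6-thio-dG, 2 and 3 between compounds in A375 and LOX-IMVI BR, and 1 for the 6-thio-dG effect between lines. It called 2525 and 2223 genes for the 2 differences between lines and 9001 between controls.

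Genes called over the whole table, in the order of the 4 comparisons with control, A375 first and 6-thio-dG first, were 5261, 4593, 4939 and 1046. With symbol genes alone they were 2772, 2169, 2243 and 538, and with the line alone 1231, 924, 15128 and 10820. Leaving out a library gave 4461 to 10228, 937 to 5272, 1550 to 1865 and 209 to 402. Between compounds 4664 were called in A375 and 5998 in LOX-IMVI BR, against 2230 and 2669 with symbol genes, 1604 and 16113 with the line alone, and 1673 to 8103 and 2447 to 2770 with a library left out. For the 6-thio-dG effect between lines 1612 were called, against 2507 with no filter, 2827 with the GC trend and 475 to 6809 with a library left out. For BIBR1532 1058 were called, against 2076 in DESeq2's test, 3002 with no filter, 585 with symbol genes, 2312 with the GC trend and 142 to 2268 with a library left out. The GC trend gave 1683 in LOX-IMVI BR with BIBR1532. Between controls 14505 were called, against 7898 with symbol genes, 9109 with the GC trend and 10264 to 13673 with a library left out.

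Changes of sign were in uncalled log2 differences. Against control, PMS2 in A375 with 6-thio-dG was -0.091 with no filter and -0.010 to 0.26 with a library left out, and with BIBR1532 MLH3 ran from -1.40 to 0.046 and MGMT from -1.08 to 0.43. In LOX-IMVI BR with 6-thio-dG, PMS2 was 0.11 with upper-quartile scaling, 0.069 with symbol genes, 0.043 with the GC trend, 0.045 with the GC trend and replicate block and -0.26 to 0.0039 with a library left out. With BIBR1532, MSH3 was -0.021 with upper-quartile scaling and -0.12 with the GC trend, with or without the replicate block.

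Between compounds in A375 with no filter, PMS1 was -0.013 and EXO1 -0.10. EXO1 was -0.18 with the replicate block and -0.029 with the block and GC trend, and PMS2 was 0.031 with the GC trend and 0.029 with the block as well. With a library left out MSH6 ran from -1.01 to 0.84, PMS1 from -0.79 to 0.75 and EXO1 from -1.66 to 0.82, each lowest without 6-thio-dG replicate 2, where EXO1 was called lower (edgeR adjusted p = 0.0031). EXO1 was called in the opposite direction without 6-thio-dG replicate 1, at 0.82 (adjusted p = 0.028). In LOX-IMVI BR MSH6 was 0.031 with the GC trend and 0.035 with the block as well.

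For the 6-thio-dG effect between lines, MSH6 was -0.076 with upper-quartile scaling, -0.36 with the GC trend and -0.35 with the block as well, and ran from -0.65 to 1.21 with a library left out, where EXO1 ran from -0.30 to 2.18. For BIBR1532, MSH6 was -0.26 with the GC trend and -0.25 with the block as well. MLH3 was -0.015 with both and ran from -0.19 to 1.26 with a library left out, and PMS2 ran from -0.23 to 0.051. Between controls PMS2 was 0.14 with the GC trend and 0.15 with the block as well.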
